A study of Mus musculus with 12 samples.

Results

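The effect of Top1 deletion on the transcripts of cultured cortical neurons that had received no drug was measured by comparing the 3 Top1 cKO-Veh libraries with the 3 WT-Veh libraries, which are 6 of the 12 RNA-seq libraries of the series. Members were chosen by group label alone, and each gene of the count table (23893) was tested, with the libraries paired by replicate number. Cultures came from cerebral cortex of E13.5 to 15.5 mouse embryos (E for embryonic day; the strain is given as C57BL6, and as C57BL6/J for the females named in the growth protocol) and, per the study's methods, carried the floxed Top1 allele (Top1fl/fl, LoxP sites on either side of exon 3) in both groups, whereas the sample labels call the control genotype wild-type. At 3 days in vitro (DIV) WT-Veh cultures were infected for 24 h with a lentivirus encoding the red fluorescent protein tdTomato, and Top1 cKO-Veh cultures with one encoding tdTomato and CRE, which recombines the LoxP sites and deletes that exon. All 6 cultures received the vehicle, 0.003% DMSO, at DIV 15 and were harvested 3 days later, at DIV 18. The other 6 cultures, WT-Topot and Top1 cKO-Topot, were handled in the same way but with the TOP1 inhibitor topotecan (300 nM). The viral promoter, CaMKIIα, restricts expression to neurons and 85 to 90% of the cells were transduced, so uninfected neurons and non-neuronal cells of a Top1 cKO culture keep an intact gene. Neither the labels nor the methods say whether cultures of one group came from different litters, so p-values speak for these cultures only. With replicate number as a block they measure the spread of the differences within pairs, not that between cultures of a group.

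TOP1 relaxes DNA by cutting one strand, letting the helix turn and sealing the cut, and it acts ahead of and behind RNA polymerase II, where transcription leaves the helix over- and underwound. Very long genes, many of which encode synaptic adhesion molecules, receptors and ion channels in neurons, are known for their dependence on TOP1. ATF4 is the transcription factor of the integrated stress response: when phosphorylation of eIF2α lowers general translation, ATF4 protein accumulates and switches on genes for amino acid uptake, amino acid synthesis and the charging of transfer RNAs.

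Top1 transcripts fell in each Top1 cKO-Veh culture. The level of Top1 (chr2:160471624-160548500 on mm9) was 114, 161 and 122 CPM in WT-Veh cultures 1, 2 and 3 and 29.8, 42.8 and 26.6 CPM in Top1 cKO-Veh cultures 1, 2 and 3. The groups did not overlap, and 24.8 ± 2.61% (SD, n = 3 pairs) of the paired WT-Veh level was left. The difference gave p = 0.1 in a two-sided exact permutation test over libraries, the smallest p that 3 libraries against 3 allow. CPM here and below are read counts per 1000000 counts of a library, with library sizes scaled by edgeR's TMM method. Libraries held 1730164 to 4583777 counts, so that 3 counts equal 0.654 to 1.73 CPM.

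More genes were lower than higher after Top1 deletion, and the lower genes included short genes of amino acid supply and very long genes of neuronal adhesion and signalling. With replicate number as a blocking term, 284 genes had lower levels in Top1 cKO-Veh cells (1.19% of the 23893 genes tested) and 190 were higher (0.795%), at an FDR of 0.01 in edgeR's quasi-likelihood test. The median log2 fold change was −1.01 over the lower genes and 0.816 over the higher genes, and 51.4% of the lower but 33.7% of the higher genes changed by at least 1 on the log2 scale. Of the lower genes, 283 had the same direction in all 3 pairs and 256 did not overlap between the groups, as against 188 and 158 of the higher genes. Groups did not overlap for 20.0% of the 13667 expressed genes, as genes averaging 1 CPM or more over the 6 libraries are called here.

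These counts rest on the pairing and on each replicate number. Leaving out replicate 1, 2 or 3 gave 98, 98 and 125 lower and 38, 60 and 69 higher genes. Of the 284 and 190 genes, 57 and 27 were called in each of these 3 fits. Around the group means, libraries that shared a replicate number deviated together (correlation 0.360 to 0.487 over genes). With no replicate block, 3 genes passed as lower (0.0126%) and 0 as higher. The 3 were Slc7a3, Shmt2 and Chac1, and every other gene called below thus missed the FDR of 0.01 in the fit with no block. At an unadjusted p under 0.05 that fit gave 1222 lower and 960 higher genes, and DESeq2 with the block gave 286 and 226 at the FDR of 0.01. Among 14 symbols of the clustered protocadherin α genes that were lower, the same 3′ exons are counted for each, and with that cluster as 1 the lower genes were 271.

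Several genes of amino acid uptake fell. Of 20 amino acid transporters, 8 fell and 0 rose, where 2.08% of the expressed genes were lower and 1.39% higher, and the median log2 fold change of the list was −0.49. Slc7a3 (chrX:98274549-98281359), a transporter of cationic amino acids, had 59.7, 60.8 and 84.4 CPM in WT-Veh cultures 1 to 3 and 7.73, 5.35 and 2.46 CPM in Top1 cKO-Veh cultures 1 to 3. Each Top1 cKO-Veh culture lay below each WT-Veh culture, and the fold was 12.1 (log2 −3.60, SE 0.268, edgeR adjusted p = 4.58e-05, and 0.00212 with no block). Its relative Slc7a1, which also carries arginine and lysine, fell from 270, 330 and 235 CPM to 118, 110 and 73.8 CPM. Both chains of the exchanger of large neutral amino acids fell as well. Slc7a5, the chain that transports, fell from 295, 347 and 238 CPM to 148, 138 and 79.2 CPM. Slc3a2, the glycoprotein chain that takes it to the membrane, fell from 312, 299 and 290 CPM to 170, 150 and 138 CPM (log2 −0.98, SE 0.106, edgeR adjusted p = 3.56e-04). The glutamine transporter Slc38a2 (log2 −1.33), the glycine transporter Slc6a9 (−1.94), the neutral amino acid transporter Slc1a4 (−0.90) and the synaptic vesicle transporter Slc6a17 (−0.49) were the other members that fell. Slc6a17 was the exception in that its groups overlapped, at 1212, 1751 and 956 CPM in WT-Veh and 1002, 1117 and 654 CPM in Top1 cKO-Veh cultures, with the lower value in Top1 cKO-Veh in each pair, and it missed the threshold without any 1 of the 3 replicate numbers, as Slc1a4 did without replicate 1.

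Enzymes that make serine, glycine, one-carbon units, asparagine and proline that changed were lower. Of 20 members, 8 fell and 0 rose, 19 had a negative log2 fold change and the median was −1.18. Asns, which makes asparagine, had 263, 276 and 269 CPM in WT-Veh cultures and 125, 104 and 106 CPM in Top1 cKO-Veh cultures, so that the groups lay far apart relative to their own spread (269 ± 6.73 against 112 ± 11.7 CPM, SD, n = 3 cultures). The fold was 2.41 (log2 −1.27, SE 0.117, edgeR adjusted p = 1.35e-04). The differences of 3 mitochondrial enzymes of folate metabolism were larger. Shmt2 (chr10:126954195-126959491), which splits serine into glycine and a one-carbon unit, fell from 64.0, 58.7 and 50.4 CPM to 10.8, 9.59 and 7.38 CPM (log2 −2.62, SE 0.191, edgeR adjusted p = 4.58e-05). Mthfd2, the next enzyme of that pathway, fell from 34.0, 38.0 and 36.8 CPM to 9.28, 5.13 and 6.89 CPM (log2 −2.39, edgeR adjusted p = 2.48e-04). Aldh1l2, which oxidises mitochondrial formyl-tetrahydrofolate, fell from 41.1, 39.7 and 22.6 CPM to 16.2, 8.48 and 4.43 CPM. Mthfd1l, which releases formate in mitochondria, was at −0.86 and did not pass (edgeR adjusted p = 0.218). In serine synthesis, Psat1 fell by 1.37 and Psph by 1.85 on the log2 scale, and Aldh18a1, an enzyme of proline synthesis, fell by 1.19. Bcat1, the cytosolic aminotransferase of branched-chain amino acids, fell from 227, 274 and 169 CPM to 110, 123 and 67.4 CPM. None of these groups overlapped, but 6, 5 and 8 members passed without replicate 1, 2 and 3: Psph and Aldh18a1 missed the threshold without replicate 1 or 2 and Aldh1l2 without replicate 2.

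Most cytosolic transfer RNA synthetases fell, and the mitochondrial ones gave no call. Each of the 20 cytosolic members had a negative log2 fold change, 11 fell and 0 rose, and the median was −0.73. Aars, which charges alanine transfer RNA, had 244, 296 and 196 CPM in WT-Veh cultures and 125, 112 and 90.1 CPM in Top1 cKO-Veh cultures (log2 −1.17, SE 0.122, edgeR adjusted p = 2.77e-04). Yars, for tyrosine, fell from 198, 200 and 152 CPM to 109, 86.1 and 70.4 CPM, and Cars, for cysteine, from 38.8, 50.5 and 52.1 CPM to 19.3, 18.5 and 20.2 CPM. The remaining synthetases that fell were those for methionine (Mars, log2 −1.02), asparagine (Nars, −0.73), valine (Vars, −1.31), threonine (Tars, −1.16), isoleucine (Iars, −1.13), leucine (Lars, −1.12), serine (Sars, −0.72) and glycine (Gars, −0.84). Dars and Kars, for aspartate and lysine, were each at −0.02 and did not pass. Without replicate 1, 2 or 3 2, 3 and 9 of the list passed as lower; Cars and Iars missed the threshold each time, Mars without replicate 1 and the synthetases for asparagine, valine, threonine, leucine, serine and glycine without replicate 1 or 2. Of the 17 mitochondrial synthetases 0 passed in edgeR or DESeq2 in either direction, 3 were negative and 0 positive at an unadjusted p under 0.05, and the median was 0.10. The difference between the lists was not tested.

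Atf4 itself and 3 other genes of the integrated stress response fell. Of 23 regulators, 4 fell and 0 rose, 21 had a negative log2 fold change and the median was −0.54. At an unadjusted p under 0.05 in edgeR 12 were negative and 0 positive, and 9 passed as lower with filterByExpr and 11 with the older deviance estimator. Atf4 (chr15:80085614-80087970) had 440, 503 and 567 CPM in WT-Veh cultures and 270, 235 and 300 CPM in Top1 cKO-Veh cultures, with no overlap (log2 −0.91, SE 0.105, edgeR adjusted p = 5.03e-04). Chac1 (chr2:119176965-119180117), an enzyme that degrades glutathione and is a known target of the pathway, had 57.7, 60.8 and 64.0 CPM in WT-Veh cultures and 9.66, 8.92 and 12.8 CPM in Top1 cKO-Veh cultures. The Chac1 level was thus 5.96-fold lower (log2 −2.58, SE 0.192, edgeR adjusted p = 4.58e-05, and 0.00212 with no block). Ddit3, the transcription factor CHOP, fell from 60.0, 69.0 and 33.4 CPM to 22.4, 21.6 and 19.2 CPM. Stc2, a secreted glycoprotein, fell from 37.1, 19.9 and 28.3 CPM to 10.8, 6.91 and 2.95 CPM. Stc2 and Ddit3 missed the threshold without replicate 1, and Ddit3 also without replicate 2. Trib3, a pseudokinase that ATF4 induces, was at −2.06 and did not pass (edgeR adjusted p = 0.0193), and neither did Atf5 (−0.75, 0.0113), Eif4ebp1 (−2.03, 0.0125) and Atf3 (−1.16, 0.0342). The eIF2α kinases Eif2ak1 to Eif2ak4 lay between −0.37 and 0.14, with no call. Of 19 chaperones and folding enzymes of the endoplasmic reticulum 1 fell, Herpud1 (log2 −1.11), and Hspa5, the chaperone BiP, was at −0.32 (edgeR adjusted p = 0.176). Herpud1 had 86.2, 70.3 and 96.8 CPM against 39.8, 29.9 and 49.2 CPM and missed the threshold without replicate 1.

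Over these 4 lists 31 of 83 members fell (37.3%) and 0 rose, which was 10.9% of all genes that were lower. For 30 of the 31 the groups did not overlap, as for 256 of all 284 lower genes, and 0 of the 31 were longer than 100 kb (median 21.7 kb). Without replicate 1, 2 or 3, 16, 19 and 28 members passed as lower. With no block 3 passed at an FDR of 0.01 and 11 at 0.05. In bulk RNA, fewer cells of a type and less RNA per cell cannot be told apart.

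**Figure D1:**
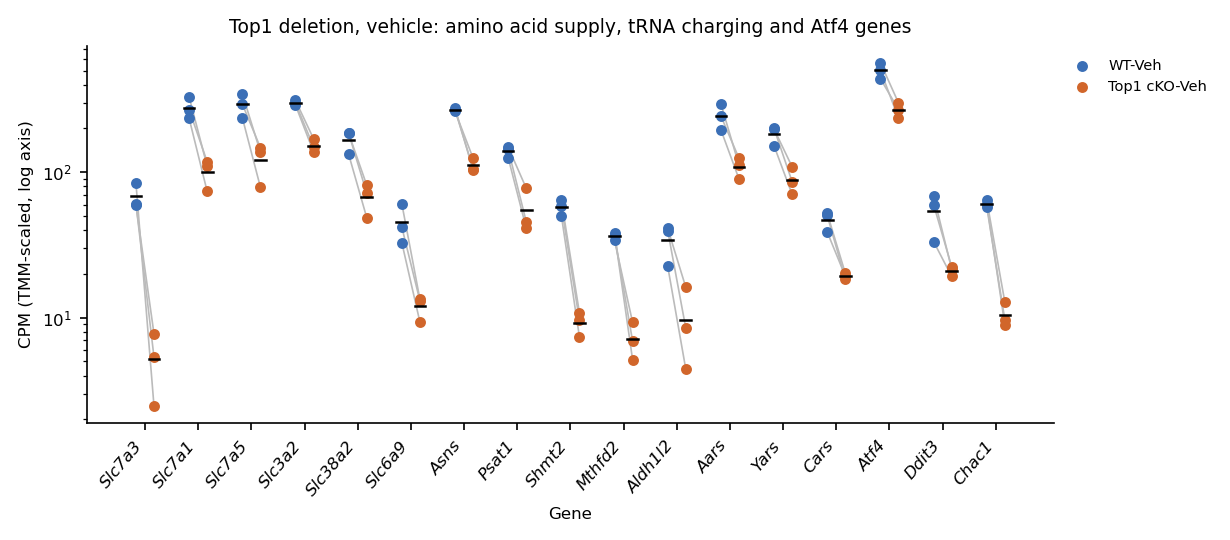
TMM-scaled CPM (log axis) of 17 genes of amino acid transport, amino acid synthesis, transfer RNA charging and the Atf4 response in the 3 WT-Veh (blue) and 3 Top1 cKO-Veh (orange) cultures; grey lines join cultures with the same replicate number and black bars are means. Every line falls from left to right and the groups do not overlap. By the fold fitted over all 3 pairs, the fall is largest for Slc7a3, Shmt2 and Chac1.

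ATF4 binds, with C/EBP partners, to a composite element whose core can be written TGATGNAA. This string was searched on both strands of RefSeq promoters (250 bases before to 50 after the transcription start, GRCm38.p6), since the genes above are short and moved together. It was found in 8 of the 24 lower members of the 4 lists with a promoter in the table (33.3%) and in 9 of 41 members not called (22.0%). It was present for 11.7% of all lower genes (24 of 206 matched), 1.43% of the higher genes (2 of 140) and 2.70% of the expressed genes (288 of 10669), and for 3.97% of all 32851 promoters in the table. Other lower genes held it in 8.79% (16 of 182). These shares are descriptions of letters in a window and were not tested. The 5 members in which a copy lay wholly before the start are printed below, as the 250 bases up to the start, 5′ to 3′ on the gene's strand, with the string or its reverse complement (TTNCATCA) in capitals. Each was placed on mm9 by an exact match, found once in that chromosome.
Chac1 (chr2:119176728-119176977, plus strand): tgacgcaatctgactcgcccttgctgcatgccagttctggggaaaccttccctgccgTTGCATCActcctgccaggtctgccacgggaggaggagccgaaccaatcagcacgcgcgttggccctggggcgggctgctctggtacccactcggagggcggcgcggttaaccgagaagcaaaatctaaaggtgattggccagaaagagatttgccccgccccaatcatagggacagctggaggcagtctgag
Asns (chr6:7643210-7643459, minus strand): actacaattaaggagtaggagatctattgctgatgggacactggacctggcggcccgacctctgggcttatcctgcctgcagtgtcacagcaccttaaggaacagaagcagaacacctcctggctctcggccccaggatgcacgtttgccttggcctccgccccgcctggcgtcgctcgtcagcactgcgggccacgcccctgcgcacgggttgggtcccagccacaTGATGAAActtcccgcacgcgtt
Aars (chr8:113557492-113557741, plus strand): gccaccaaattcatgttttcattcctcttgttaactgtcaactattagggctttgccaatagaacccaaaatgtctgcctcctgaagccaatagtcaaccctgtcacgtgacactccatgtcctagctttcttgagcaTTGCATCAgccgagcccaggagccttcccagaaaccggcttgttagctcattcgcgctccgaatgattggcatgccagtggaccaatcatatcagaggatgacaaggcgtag
Tars (chr15:11329414-11329663, minus strand): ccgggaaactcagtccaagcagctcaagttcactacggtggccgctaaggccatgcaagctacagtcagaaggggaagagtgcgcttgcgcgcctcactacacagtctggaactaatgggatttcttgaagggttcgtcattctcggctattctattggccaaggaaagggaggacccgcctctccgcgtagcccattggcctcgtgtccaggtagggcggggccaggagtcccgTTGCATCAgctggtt
Gars (chr6:54987745-54987994, plus strand): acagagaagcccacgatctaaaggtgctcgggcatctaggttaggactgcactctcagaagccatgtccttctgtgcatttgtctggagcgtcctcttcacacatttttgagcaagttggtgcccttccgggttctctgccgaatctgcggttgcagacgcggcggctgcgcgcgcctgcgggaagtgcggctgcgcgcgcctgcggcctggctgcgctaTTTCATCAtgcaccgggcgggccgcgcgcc
The copy wholly before the start began 193 bases before the start in Chac1, 112 in Aars, 30 in Gars, 23 in Asns and 15 in Tars. In Iars, Yars and Slc1a4 it overlapped or followed the start, as did another copy in Aars. Slc7a3 had no promoter in the table, and in Shmt2, Mthfd2, Psat1, Atf4 and Ddit3 these letters were not in the window.

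Lower genes were longer than higher genes. The lower genes had a median length of 72.6 kb and the higher genes of 30.7 kb, against 24.4 kb for expressed genes. Of the 268 lower genes with a length, 118 (44.0%) were longer than 100 kb, against 26 of 185 higher genes (14.1%) and 15.2% of expressed genes. The share of lower genes was 1.03 to 1.84% in each class from 5 kb or less up to 200 kb, 7.86% in the 649 genes of 200 to 500 kb and 25.0% in the 180 genes over 500 kb. Higher genes made up 0.881 to 2.15% of the classes up to 200 kb, 3 genes (0.462%) from 200 to 500 kb and 1 gene (0.556%) over 500 kb. Levels differed little between the long classes, at a median of 37.8, 37.9 and 41.6 CPM for 100 to 200 kb, 200 to 500 kb and over 500 kb with clustered protocadherins left out, whereas the shortest class had 14.0 CPM. Without replicate 1, 2 or 3 the lower genes were fewer. With clustered protocadherins left out they numbered 27, 21 and 29 over 500 kb against 45 with all 3 numbers, 22, 20 and 22 against 50 from 200 to 500 kb, and 54, 48 and 57 against 117 over 100 kb.

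Over all genes of a length class the median log2 fold change lay between −0.01 and 0.07 up to 200 kb. The shortest class, 5 kb or less, was at 0.01, 0.07 and 0.12 in pairs 1, 2 and 3, with 44.2% of its genes negative. Above 200 kb the median was negative in every pair, at −0.05, −0.10 and −0.22 from 200 to 500 kb. For genes over 500 kb the median log2 ratio was −0.38, −0.53 and −0.62 in pairs 1, 2 and 3, and 80.0% of these genes had a negative fold change. For 200 to 500 kb the median log2 fold change was −0.10 and for 100 to 200 kb it was 0.03. Split at 200 kb, the median log2 ratio of longer genes minus that of shorter genes was −0.11, −0.20 and −0.33 in the 3 pairs (mean −0.21 ± 0.11, SD, n = 3 pairs). All 3 pairs were negative, with p = 0.25 in a two-sided exact sign-flip test, the smallest p that 3 pairs allow. Split at 100 kb it was 0.02, −0.06 and −0.15 (exact sign-flip test, p = 0.5), so that the direction was not shared by the pairs.

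**Figure D2:**
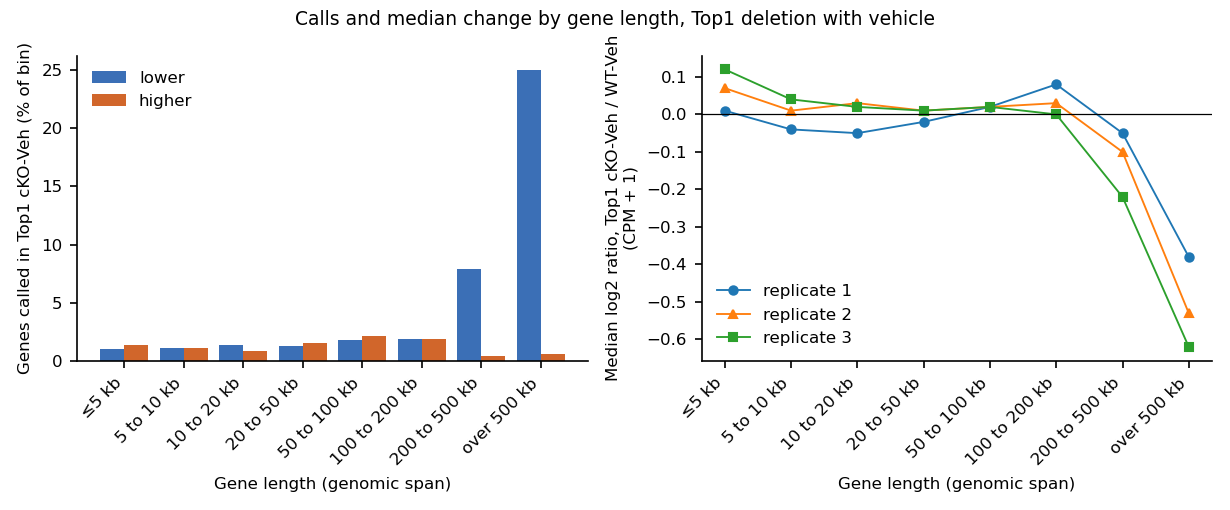
Left, percentage of genes in each length class (genomic span in kb) called lower (blue) or higher (orange) in Top1 cKO-Veh cells among expressed genes (1 CPM or more on average); right, median log2 ratio of Top1 cKO-Veh to WT-Veh (CPM + 1) of the same classes for each replicate number. Calls of lower genes reach 7.86% at 200 to 500 kb and 25.0% over 500 kb, and the medians of all 3 pairs drop in these classes.

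The 5 longest genes that fell were Ptprd, Dlg2, Csmd1, Nrxn3 and Pcdh15. Ptprd (chr4:75587142-77857865, 2271 kb), a receptor phosphatase that organises synapses, had 268, 274 and 286 CPM in WT-Veh cultures and 123, 128 and 81.7 CPM in Top1 cKO-Veh cultures (log2 −1.31, SE 0.142, edgeR adjusted p = 3.43e-04). Dlg2 (1945 kb), the scaffold PSD-93, fell from 832, 1092 and 927 CPM to 458, 469 and 325 CPM (log2 −1.19, edgeR adjusted p = 2.19e-04). Csmd1 (1643 kb), a membrane protein with complement control domains, fell from 61.1, 80.3 and 65.7 CPM to 24.0, 26.1 and 14.3 CPM. In each of these the Top1 cKO-Veh values lay below the lowest WT-Veh value, and the lowest was that of culture 3. Nrxn3 (1612 kb), a presynaptic neurexin, fell by 1.02 and Pcdh15 (1550 kb), a protocadherin of hair cell and neuronal contacts, by 2.02 on the log2 scale, but Nrxn3 missed the threshold without replicate 2 or 3 and Pcdh15 without any 1 of the 3 replicate numbers. Length alone did not mark a gene as lower, since 25.0% of the expressed genes over 500 kb were lower. Of the 3 genes with the longest annotated span that did not pass, Fgfr2 (3009 kb in the annotation), a growth factor receptor, was at 0.33 and Dmd (2257 kb), which encodes dystrophin, at 0.20. Annotated spans were not compared with the RefSeq exons that were counted, so Fgfr2 is not a firm example. Cntnap2 (2241 kb), a contactin-associated protein, had 10.6, 14.2 and 7.36 CPM in WT-Veh and 6.19, 4.68 and 3.45 CPM in Top1 cKO-Veh cultures, without overlap but short of the threshold (log2 −1.20, SE 0.313, edgeR adjusted p = 0.0484).

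Neuronal adhesion genes that changed were mostly lower. Of 91 members, whose median length was 291 kb, 21 fell and 2 rose, and the median log2 fold change was −0.38. Among all expressed genes 7.86% of those of 200 to 500 kb and 25.0% of those over 500 kb were lower. The part of length in this count and in those of receptors, channels, release machinery and scaffolds below was not tested. Opcml (1135 kb), an IgLON adhesion protein, had 635, 694 and 606 CPM in WT-Veh cultures and 284, 300 and 179 CPM in Top1 cKO-Veh cultures (log2 −1.36, SE 0.121, edgeR adjusted p = 1.13e-04). Pcdh9 fell from 252, 389 and 224 CPM to 114, 110 and 64.0 CPM. Nlgn1, a postsynaptic partner of neurexins, fell by 1.24 and the receptor phosphatase Ptprk by 1.76 on the log2 scale. The teneurins Tenm1, Tenm2 and Tenm3, the cadherins Cdh12 and Cdh13, the contactin Cntn5 and the leucine-rich repeat protein Lrfn5 were also lower. The 2 members that rose were shorter genes, Lrrtm2 (6.01 kb, log2 0.67), another partner of neurexins, and the protocadherin Pcdh17 (93.5 kb, 0.64). With 1 replicate number left out, 15 members passed as lower and 0 as higher in each of the 3 fits. Cntn5, Lrrtm2 and Pcdh17 missed the threshold each time, Tenm2 and Cdh13 without replicate 1 and Cdh12 without replicate 2.

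Among glutamate receptors 5 of 26 fell and 0 rose, and the 5 were 444 to 922 kb long. Of the expressed genes 7.86% were lower at 200 to 500 kb and 25.0% over 500 kb. Grm5, the group I metabotropic receptor mGluR5, had 384, 444 and 510 CPM in WT-Veh cultures and 180, 235 and 141 CPM in Top1 cKO-Veh cultures (log2 −1.26, SE 0.152, edgeR adjusted p = 6.28e-04). The group III receptors Grm7 and Grm8 fell by 1.46 and 1.67, the NMDA receptor subunit Grin2b by 0.93 and the kainate receptor subunit Grik2 by 1.10 on the log2 scale. Of the AMPA receptor subunits, which did not pass, Gria1 was at 0.24, Gria2 at −0.38, Gria3 at 0.17 and Gria4 at −0.26. Without replicate 1, 2 or 3, 1, 2 and 3 of the list passed as lower: Grin2b and Grik2 missed the threshold each time, Grm8 without replicate 1 or 2, Grm5 without replicate 1 and Grm7 without replicate 2. Among 15 GABA-A receptor subunits 1 fell, Gabra5, from 203, 154 and 303 CPM to 107, 83.4 and 123 CPM.

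Ion channel genes moved in both directions. Of 56 potassium channel genes 5 fell and 4 rose, with a median of 0.00, where 2.08% of the expressed genes were lower and 1.39% higher. Kcnq5 (564 kb), a subunit of the M-current, fell from 226, 166 and 219 CPM to 83.9, 74.7 and 61.0 CPM (log2 −1.45, SE 0.141, edgeR adjusted p = 2.19e-04). Kcnma1, the BK channel, fell by 1.16, the sodium-activated channel Kcnt2 by 1.43 and the A-type channel Kcnd2 by 0.79 on the log2 scale, and these were 366 to 514 kb long. The leak channel Kcnk2 (136 kb) fell by 0.72. The members that rose were shorter: Kcna3 (1.97 kb), a delayed rectifier, rose from 14.0, 18.1 and 19.8 CPM to 29.4, 43.0 and 41.3 CPM. Kcnip3 (65.6 kb), an auxiliary subunit of A-type channels, rose by 0.82, and the leak channel Kcnk9 by 1.03 on the log2 scale. Without replicate 1, 2 or 3 only 2, 1 and 2 of the list passed as lower and 0, 1 and 0 as higher. Kcnt2, Kcnd2, Kcnk2, Kcna3 and Kcnk9 missed the threshold each time, Kcnip3 without replicate 1 or 3 and Kcnma1 without replicate 2. Among 24 sodium and calcium channel genes Cacnb4, an auxiliary calcium channel subunit, was the 1 that fell (log2 −0.66, edgeR adjusted p = 0.00674), and it missed the threshold without replicate 2 or 3.

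The machinery of vesicle release also split. Of 44 members 4 fell and 5 rose, with a median of 0.05, where 2.08% of the expressed genes were lower and 1.39% higher. Syt1 (513 kb), the calcium sensor of fast release, fell from 1423, 1895 and 1706 CPM to 1180, 1049 and 817 CPM (log2 −0.73, SE 0.124, edgeR adjusted p = 0.00544). Sv2b, a vesicle glycoprotein, fell by 0.71, the active zone scaffold Ppfia2 by 1.12 and Syt4 by 0.64 on the log2 scale. Cplx2 (12.6 kb), a complexin that clamps the fusion machinery, rose from 746, 1083 and 985 CPM to 1721, 1921 and 1819 CPM, so that its groups lay far apart (log2 0.97, SE 0.0919, edgeR adjusted p = 1.70e-04, and 0.0384 with no block). Vamp1, a vesicle SNARE, rose from 34.0, 80.7 and 62.3 CPM to 119, 161 and 142 CPM (log2 1.31, edgeR adjusted p = 7.47e-04). Syt13, Syt17 and Sv2c were the other members that rose. Without replicate 1, 2 or 3, 3, 1 and 2 of the list passed as lower and 2 as higher each time. Syt13, Syt17 and Sv2c missed the threshold each time, Syt1 and Sv2b without replicate 2 or 3 and Syt4 without replicate 1 or 2.

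In the postsynaptic density 6 of 25 scaffold genes fell and 2 rose, where 2.08% of the expressed genes were lower and 1.39% higher. Only 2 passed as lower without any 1 of the 3 replicate numbers, and 0, 0 and 1 as higher. Dlgap1 (852 kb), which links PSD-95 proteins to Shank, fell from 365, 593 and 370 CPM to 221, 255 and 135 CPM. Shank3 (60.6 kb) fell from 335, 333 and 315 CPM to 242, 201 and 199 CPM, so that not every scaffold gene that fell was longer than 100 kb. The scaffolds that rose were Homer2, from 102, 110 and 123 CPM to 187, 198 and 192 CPM, and Baiap2, from 103, 122 and 90.6 CPM to 179, 184 and 181 CPM. Shank3 and Baiap2 missed the threshold without any 1 of the 3 replicate numbers, and Homer2 without replicate 1 or 2. In the cytoskeleton list Dclk1, Ank2 and Ank3 fell and Map1b, a microtubule-associated protein of axons, rose from 1795, 2041 and 1795 CPM to 2403, 2980 and 2528 CPM. Ank3 and Map1b missed the threshold without any 1 replicate number, Ank2 without replicate 2 or 3 and Dclk1 without replicate 2.

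**Figure D3:**
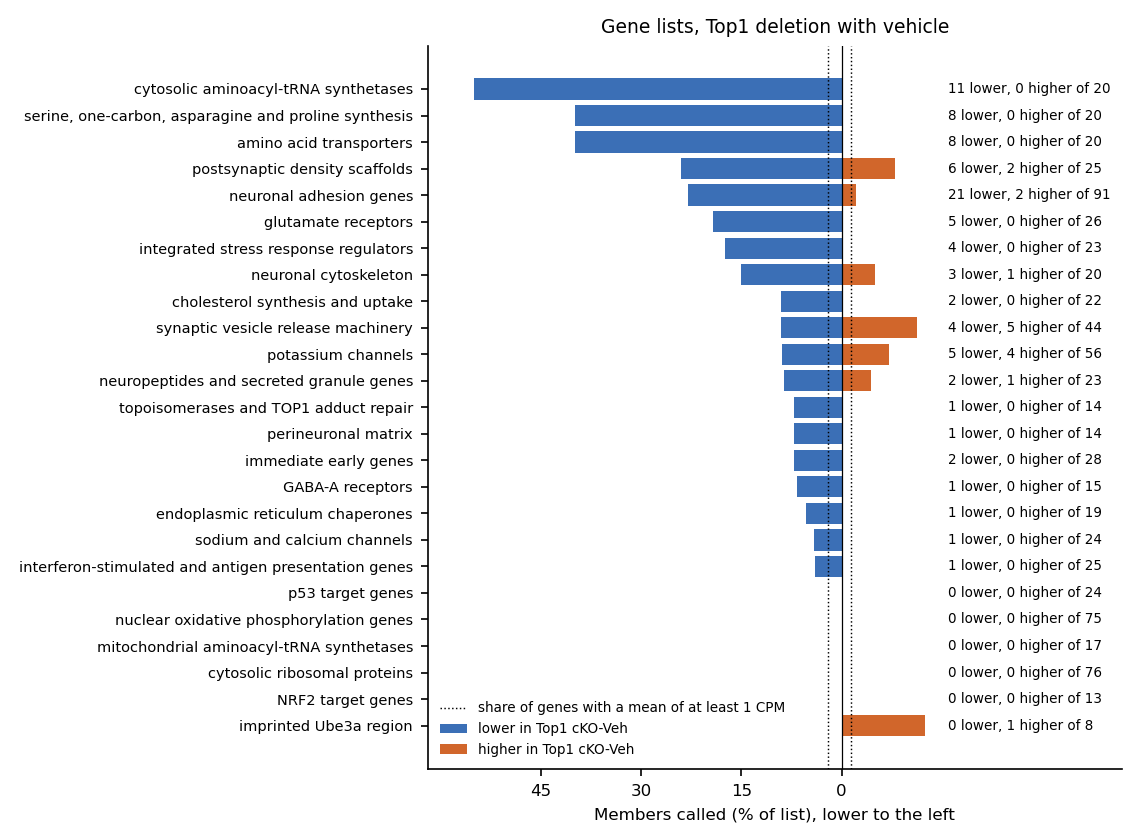
Percentage of each of 25 pathway lists called lower (blue, to the left) or higher (orange, to the right) in Top1 cKO-Veh cells at an FDR of 0.01, with counts at the right; dotted lines mark the shares over expressed genes (1 CPM or more on average), 2.08% lower and 1.39% higher. Cytosolic transfer RNA synthetases, amino acid synthesis and amino acid transporters have the longest bars.

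Among genes averaging 5 CPM or more and lower in each pair, several of the largest falls were in genes outside the lists above. Gpr4, a proton-sensing receptor, was near the limit of detection after deletion, with 32, 37 and 13 counts in WT-Veh and 1, 3 and 2 counts in Top1 cKO-Veh cultures (log2 −4.09, SE 0.459, edgeR adjusted p = 2.39e-04). Ostn, which encodes the secreted peptide osteocrin, had 24, 26 and 21 counts against 1, 4 and 3 counts (log2 −3.46, SE 0.436). Gpr4 missed the threshold without replicate 2, and Ostn without replicate 1 or 2. Hapln4 (chr8:72607428-72614761), a link protein of perineuronal matrix at synapses, had 60.8, 46.6 and 53.8 CPM in WT-Veh and 10.4, 2.90 and 6.40 CPM in Top1 cKO-Veh cultures. Its groups lay apart by 8.72-fold (log2 −3.12, SE 0.258, edgeR adjusted p = 7.98e-05, and 0.0101 with no block). Susd5, a sushi domain protein, fell by 2.96 on the log2 scale at a WT-Veh level of 11.4 ± 3.22 CPM (SD, n = 3), and missed the threshold without replicate 1 or 2. Nppc, the C-type natriuretic peptide precursor, fell from 19.4, 38.0 and 39.6 CPM to 6.96, 6.02 and 5.91 CPM, and Adcyap1, the neuropeptide PACAP, from 113, 198 and 107 CPM to 60.7, 71.6 and 51.7 CPM, both short of the threshold without replicate 2. Lcn2, an acute-phase lipocalin of reactive glia, had 67.7 CPM in WT-Veh culture 1 but 4.32 and 3.96 CPM in the other WT-Veh cultures, against 4.64, 0.446 and 1.48 CPM in Top1 cKO-Veh cultures. The groups of Lcn2 overlapped, and without replicate 1 its edgeR adjusted p was 0.186. Gm3417 and Gm3448 had identical counts and lie beside Gm3435, so these neighbouring symbols count as uncertain. They were highest in WT-Veh culture 3 (27.7 CPM for Gm3417, against 4.57 and 6.04 CPM), and Gm3417 missed the threshold without any 1 of the 3 replicate numbers.

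Of the genes averaging 5 CPM or more and higher in each pair, Palmd had the largest rise. This gene, which encodes palmdelphin, rose from 5.14, 9.06 and 7.93 CPM to 30.2, 26.5 and 42.8 CPM (log2 2.16, SE 0.254, edgeR adjusted p = 5.47e-04). Hap1 (chr11:100208641-100217455), the huntingtin-associated protein of vesicle transport, rose from 64.3, 139 and 107 CPM to 202, 455 and 403 CPM (log2 1.75, SE 0.113, edgeR adjusted p = 4.58e-05). Trp53i11, known as a p53-inducible gene, rose from 12.9, 31.1 and 26.6 CPM to 43.3, 126 and 146 CPM. Culture 1 was the lowest of its group for Hap1 and Trp53i11 in both groups, and the log2 ratios within pairs were 1.64, 1.70 and 1.90 for Hap1 and 1.68, 1.98 and 2.41 for Trp53i11. Rprm, a cell cycle inhibitor that is also a marker of deep-layer cortical neurons, rose from 42.6, 28.1 and 93.4 CPM to 110, 145 and 221 CPM. Slc30a3, the zinc transporter of glutamatergic vesicles, rose from 14.3, 13.4 and 29.4 CPM to 54.9, 54.6 and 47.3 CPM. The neuropeptide Grp rose from 7.71, 1.73 and 7.93 CPM to 18.9, 31.2 and 28.5 CPM, and missed the threshold when any 1 replicate number was left out. Cd34, a sialomucin of vascular and progenitor cells, rose by 1.86, Rab26, a GTPase of vesicles, by 1.60 and Smoc2, a matrix protein, by 1.81 on the log2 scale. The transcripts C630043F03Rik and 6720401G13Rik rose by 1.89 and 1.77. Rab26, Smoc2 and C630043F03Rik missed the threshold without any 1 of the 3 replicate numbers, Slc30a3 and Cd34 without replicate 1 or 2, 6720401G13Rik and Sfi1 without replicate 2 or 3, and Palmd without replicate 1. For 6720401G13Rik and for Sfi1, a centrosomal protein gene, the groups overlapped. Sfi1 had 7.43, 9.93 and 20.4 CPM in WT-Veh and 8.12, 28.6 and 115 CPM in Top1 cKO-Veh cultures, so that its log2 fold change of 1.72 came mostly from pair 3.

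The longest genes that rose had moderate changes. Fgf13 (506 kb), an intracellular growth factor homologue that binds sodium channels, rose from 169, 143 and 209 CPM to 237, 209 and 337 CPM, with overlapping groups. Sema5a (452 kb), a semaphorin, rose from 46.8, 82.0 and 70.8 CPM to 94.7, 162 and 145 CPM (log2 1.01, SE 0.125, edgeR adjusted p = 7.85e-04). Nhsl2, Pigk and Zfp704 (183 to 266 kb) rose by 1.08, 0.77 and 0.78 on the log2 scale. Fgf13, Pigk and Zfp704 missed the threshold without any 1 of the 3 replicate numbers, Nhsl2 without replicate 1 or 2 and Sema5a without replicate 1.

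**Figure D4:**
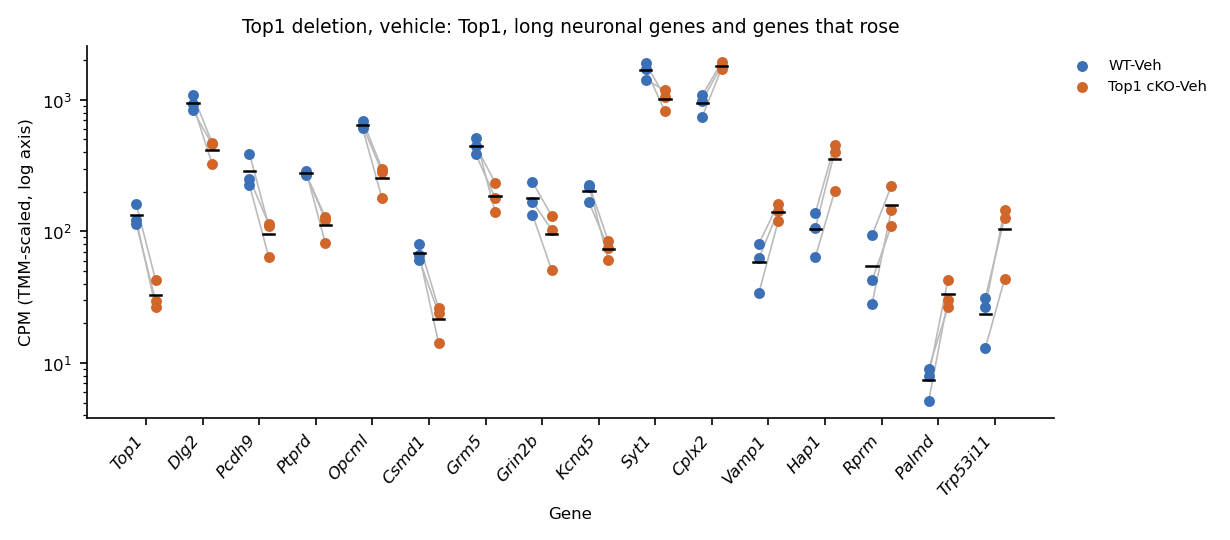
TMM-scaled CPM (log axis) of Top1, 9 neuronal genes that fell and 6 genes that rose in the 3 WT-Veh (blue) and 3 Top1 cKO-Veh (orange) cultures; grey lines join cultures with the same replicate number and black bars are means. Lines run down from Top1 to Syt1 and up from Cplx2 to Trp53i11.

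The pathways below gave 0 to 2 calls each, where 2.08% of the expressed genes were lower and 1.39% higher. Of 28 immediate early genes 2 fell, the activity-dependent transcription factor Npas4 and the neurotrophin Bdnf. Bdnf had 190, 446 and 196 CPM in WT-Veh and 156, 141 and 77.8 CPM in Top1 cKO-Veh cultures (log2 −1.09, SE 0.205, edgeR adjusted p = 0.00891). Bdnf missed the threshold without replicate 2 or 3, and Npas4 (23.1, 66.9 and 28.9 against 12.8, 31.2 and 15.8 CPM) without any 1 of the 3. Of 24 p53 target genes 0 passed, with a median of 0.24, and of the other topoisomerases and adduct repair genes 0 passed, Top2b being at 0.45 (edgeR adjusted p = 0.0686). In cholesterol synthesis and uptake 2 of 22 genes fell, Sc4mol and Pmvk, and 20 of 22 had a negative log2 fold change (median −0.64). At an unadjusted p under 0.05 in edgeR 19 of the 22 were negative and 1 positive, and 11 passed as lower with the older deviance estimator. Of 76 cytosolic ribosomal protein genes and of 75 nuclear genes of oxidative phosphorylation 0 passed, with medians of −0.06 and 0.08. DESeq2 also gave 0 calls in the p53, NRF2, ribosomal and oxidative phosphorylation lists. Under filterByExpr 2 p53 targets, 1 ribosomal gene and 1 oxidative phosphorylation gene passed as higher and 0 members as lower. The older deviance estimator gave 1 lower and 3 higher p53 targets, 0 and 1 NRF2 targets and 2 and 1 ribosomal genes. In oxidative phosphorylation it gave 0 lower and 3 higher genes. At an unadjusted p under 0.05, edgeR gave 1 negative and 7 positive p53 targets, 1 and 2 NRF2 targets, 5 and 3 ribosomal genes and 5 and 10 oxidative phosphorylation genes. Of 8 genes of the imprinted Ube3a region 1 rose, Ndn, from 527, 503 and 760 CPM to 791, 767 and 1156 CPM. Of 13 NRF2 targets 0 passed, and of 25 interferon-stimulated and antigen presentation genes 1 fell, H2-D1 (log2 −0.91). Outside that list the antigen presentation genes Cd74 (−2.99), H2-Q7 and H2-Q9 (each −2.24) were lower too. Pmvk, Ndn, H2-D1 and Cd74 missed the threshold without any 1 replicate number, and Sc4mol, H2-Q7 and H2-Q9 without replicate 2 or 3.

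Markers of neurons and glia were compared to see whether the cultures differed in composition. The 10 pan-neuronal markers gave 0 calls and summed to 5404 to 7150 CPM in WT-Veh and 6247 to 7441 CPM in Top1 cKO-Veh cultures. Excitatory markers summed to 2706 to 2915 and 2841 to 2883 CPM, and 1 of 10 fell. Interneuron markers (13) gave 0 calls at 808 to 1763 and 1243 to 1430 CPM. Astrocyte markers (11) gave 0 calls at 2376 to 4867 and 2681 to 6233 CPM. Microglial markers were scarce, with 4 of 10 expressed, and summed to 8.49 to 27.4 CPM in WT-Veh and 2.95 to 9.15 CPM in Top1 cKO-Veh cultures, with 0 calls and a median log2 fold change of −1.46. Of 11 oligodendrocyte lineage markers 1 rose, Olig1 (log2 1.43), with a sum of 125 to 178 and 151 to 206 CPM, and 2 were at 0 in all 6 libraries. Endothelial and mural markers (10, with 1 at 0) gave 0 calls at 18.1 to 29.4 and 26.3 to 31.7 CPM, and progenitor and proliferation markers (12) gave 0 calls at 205 to 532 and 258 to 617 CPM. Olig1 missed the threshold without replicate 1 or 3. Within pairs 1, 2 and 3 the summed level differed in 1 direction for several lists. Astrocyte markers went from 4867, 3497 and 2376 CPM to 6233, 3821 and 2681 CPM and progenitor markers from 532, 309 and 205 CPM to 617, 335 and 258 CPM. Oligodendrocyte lineage markers went from 162, 178 and 125 CPM to 206, 205 and 151 CPM and endothelial and mural markers from 29.4, 18.1 and 24.3 CPM to 31.7, 26.3 and 31.5 CPM. Microglial markers went the other way, from 27.4, 16.4 and 8.49 CPM to 7.73, 9.15 and 2.95 CPM. In the cell type lists with 0 calls in the main edgeR fit, DESeq2 called 1 pan-neuronal and 1 astrocyte marker higher and 0 others. FilterByExpr and the older deviance estimator each called 1 pan-neuronal, 2 interneuron and 1 astrocyte marker higher and 1 microglial marker lower. At an unadjusted p under 0.05 the main edgeR fit gave 2 negative and 3 positive pan-neuronal markers and 3 negative microglial markers. As positive only, it gave 2 interneuron, 2 astrocyte, 1 endothelial and 1 progenitor marker. The part of these differences in the results above was not tested.

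The same deletion under topotecan, Top1 cKO-Topot against WT-Topot, uses none of these 6 libraries, although it carries the same replicate numbers. Top1 fell there by 2.07 on the log2 scale. In that comparison 393 genes were lower (1.64%) and 564 higher (2.36%), but 18 and 32 without replicate 1 and 0 and 0 without replicate 3. Of the 284 genes lower with vehicle, 46 were lower and 21 higher with topotecan, so that the genes lower in both were 16.2% of the first list and 11.7% of the second. Of the 150 genes of 100 kb or less 79.3% had a negative log2 fold change with topotecan, against 55.8% of all expressed genes of that length. Of the 118 genes over 100 kb 39.0% were negative, against 29.1% of all expressed genes of that length, and 9 were lower (7.63%, against 1.48%) and 18 higher (15.3%, against 14.2%). The difference between the length classes was not tested. Of the 190 genes higher with vehicle 53 were higher with topotecan and 5 lower, which was 27.9% of the first list and 9.40% of the second, and 21.6% were negative.

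Slc7a3 was lower with topotecan too (log2 −2.59, edgeR adjusted p = 0.00222), as was Gpr4 (−2.23, 0.00533), and Grp (2.43, 6.39e-04) and Vamp1 (1.43, 5.69e-04) were higher. Of the 31 lower genes of amino acid supply and stress response 21 were negative with topotecan, 1 was lower and 1 higher, with a median of −0.20. Over all expressed genes 51.8% were negative, 2.87% lower and 4.13% higher in that comparison. The gene that was higher was Atf4 (log2 0.97, SE 0.154, edgeR adjusted p = 0.00467), the reverse of its direction with vehicle, from a WT-Topot level that was itself lower than WT-Veh (log2 −1.64, edgeR adjusted p = 2.75e-05). Chac1 was at −0.09 and Asns at −0.14, and Nrxn3 was higher (1.30, 0.00173). The difference between the deletion effects passed the test of interaction on all 12 libraries for 604 genes (2.53%), among them 109 of the 284 and 52 of the 190, and for 49 genes with no block. Genes chosen for their change with vehicle are favoured to show a smaller one with topotecan, since the interaction uses the same vehicle libraries.

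**Figure D5:**
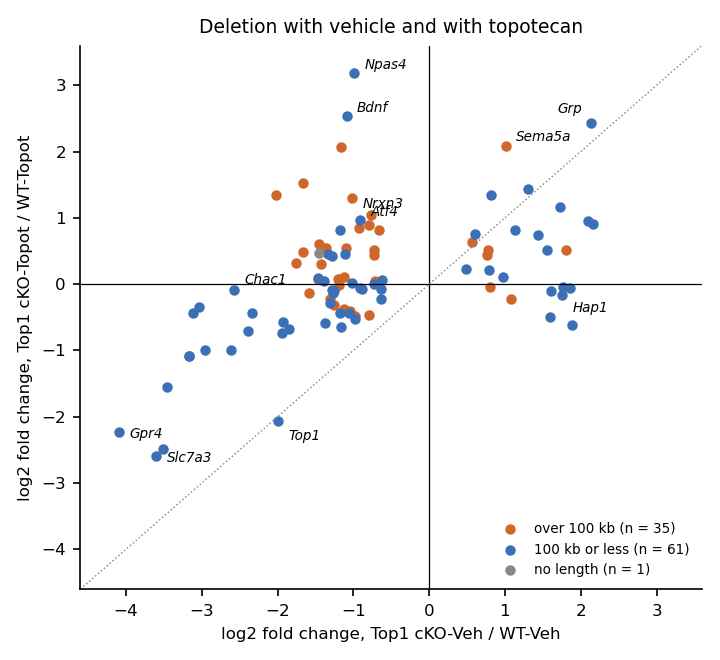
Log2 fold change of the 97 named genes called with vehicle, for Top1 cKO-Veh over WT-Veh (x axis) and Top1 cKO-Topot over WT-Topot (y axis), with genes over 100 kb in orange, of 100 kb or less in blue and without a length in grey; the dotted line marks equal values. Top1 lies on the line at −1.99 and −2.07, Slc7a3 is low on both axes, and Bdnf and Npas4 are lower with vehicle and higher with topotecan.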

How the data were processed

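Total RNA of cultured mouse cortical neurons was sequenced as 12 libraries, of which the 3 WT-Veh and 3 Top1 cKO-Veh libraries form the comparison described here. The authors deposited 1 table of raw counts, whole numbers of reads per gene symbol, without normalisation. Per the study's methods and the submitters' processing notes, reads were filtered with TagDust, ribosomal RNA reads were removed, the rest was aligned to mm9 with TopHat and reads on RefSeq exons were counted; the counter, its strand setting and the versions are not given in the sources used here. Because strand is not stated, overlapping and antisense genes cannot be told apart.

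Counts were analysed in R 4.3.3 with edgeR 4.0.16 (TMM scaling, glmQLFit with the bias-adjusted deviance, glmQLFTest, no filter, all 23893 genes, of which 5182 had no count in any library). The replicate number was a block, p-values were adjusted by Benjamini-Hochberg over all genes and the threshold was an FDR of 0.01. SE is the standard error of the log2 fold change as derived from the test, its size divided by the square root of the quasi-likelihood F statistic. It is thus no measure of precision apart from the p-value. Pairing by replicate number was set with the comparison, and what the numbers stand for is not given in the labels. Libraries with one replicate number deviated together (correlation 0.360 to 0.487), as measured in the same libraries that were tested. Topotecan libraries were fitted in the same way, and the interaction was tested on all 12. Pair ratios used log2(CPM + 1). Gene lengths and mm9 positions came from GENCODE vM1 (21013 symbols matched directly, 1046 through synonyms and 1834 not matched), and promoters from RefSeq. Tables and figures were made in Python 3.11.15.

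Named genes were Top1, the 12 lower and 12 higher genes with the largest change at a mean of at least 5 CPM and the same direction in all pairs, up to 6 members per list with the smallest p, the 5 longest lower and 5 longest higher genes and the 3 longest that did not pass. Other list members were named after their values were seen, and some genes are not reported here. The comparison, the 33 gene lists and their members were chosen with earlier results of these data known.

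Alternatives were a fit with no block, RLE scaling, no scaling, filterByExpr, DESeq2 1.42.0, a fit of all 12 libraries, leaving out each replicate number and, added after the data were seen, edgeR's older deviance estimator. With that estimator and the block the prior degrees of freedom were infinite, so the bias-adjusted deviance was kept. The fit was tested on simulated data of the vehicle comparison (23893 genes): with the block 58 of 100 genes changed by 1 on the log2 scale and 90 of 100 changed by 2 were recovered with 0 false calls, and with no block 12 and 88. The simulated counts were given an effect of the replicate number, and their noise was drawn from the dispersion of the fit with the block. The gain from the block was thus built in, and the simulation cannot show whether the pairing or the rate of false calls holds in the real libraries. Counting error only is covered by the 3-count limits.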

Additional observations from a re-analysis of the deposited data

Results flagged for a closer look

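Of the 94 named genes reported here and called with vehicle, 43 differed in their deletion effect between vehicle and topotecan, by the interaction of deletion and drug at an FDR of 0.01 in edgeR on all 12 libraries. The genes were chosen for their change with vehicle and the interaction uses the same vehicle libraries, which favours a smaller effect with topotecan. Values below are the log2 deletion effect with topotecan minus that with vehicle, so a positive value for a gene lower with vehicle is a smaller fall or a rise with topotecan. Among genes of amino acid supply, transfer RNA charging and stress response, all of them lower with vehicle, the differences were those of Slc7a1 (1.56), Slc7a5 (1.19), Slc38a2 (1.79), Shmt2 (1.64), Asns (1.14), Cars (1.68), Nars (0.75), Atf4 (1.89), Ddit3 (1.46), Chac1 (2.50) and Herpud1 (1.57). Among adhesion genes and synaptic scaffolds that were lower with vehicle they were those of Csmd1 (2.15), Nrxn3 (2.32), Opcml (1.90), Ptprk (2.07), Pcdh9 (1.43), Tenm1 (1.92), Dlg2 (1.18), Dlgap1 (1.22) and Shank3 (0.68). Receptors, channels and release machinery that were lower with vehicle gave Grm7 (1.54), Grm8 (3.22), Grin2b (1.75), Grik2 (1.65), Kcnq5 (2.05), Kcnma1 (3.25), Kcnd2 (1.67), Cacnb4 (1.49) and Syt1 (1.24). The other genes that were lower with vehicle were Hapln4 (2.67), Npas4 (4.12), Bdnf (3.72), Adcyap1 (2.02), Ank2 (1.17) and Ank3 (1.82). Of the genes that were higher with vehicle, 7 had a smaller deletion effect with topotecan, C630043F03Rik (−2.48), Cd34 (−1.89), Hap1 (−1.93), Rprm (−1.68), Rab26 (−2.14), Nhsl2 (−1.30) and Cplx2 (−0.86). Sema5a was the gene that rose more with topotecan (1.09).

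Among the 43, Npas4, Bdnf and Atf4 were lower with vehicle and higher with topotecan, where their log2 fold changes were 3.18, 2.54 and 0.97, and Kcnma1 (2.07), Nrxn3 (1.30), Ank3 (1.04) and Cacnb4 (0.82) also passed as higher with topotecan. In WT cultures topotecan itself lowered each of these 7 genes (log2 −4.01 to −1.60), so that they were higher than a reduced WT-Topot level: Npas4 had a mean of 3.65 CPM in WT-Topot and 30.6 CPM in Top1 cKO-Topot against 39.6 CPM in WT-Veh cultures, Bdnf 27.4 and 164 against 277 CPM and Atf4 166 and 331 against 504 CPM, with the topotecan libraries scaled apart from the vehicle libraries. In the fit with no block 49 genes of the whole table passed the interaction. Without replicate 3 the topotecan comparison gave 0 calls lower and 0 higher in edgeR.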

How the results depend on the processing

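The number of calls depended on the pairing, on the filter and on each replicate number. With no replicate block 3 genes were lower and 0 higher, and Top1 (log2 −1.97) had an edgeR adjusted p of 0.0104. With filterByExpr 510 were lower and 471 higher, with all 12 libraries 414 and 342, and with the older deviance estimator, added after the data were seen, 706 and 622 with the block and 30 and 11 with no block. Without 1 replicate number 98 to 125 genes were lower and 38 to 69 higher. RLE scaling, no scaling and DESeq2 gave 278 to 289 lower and 185 to 226 higher genes. Of the 284 and 190 genes, 226 and 154 were called by all alternatives with the block that used all 3 replicate numbers, and 57 and 27 in each of the fits that left a number out.

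For Top1 cKO-Topot against WT-Topot the counts lower and higher were 101 and 171 with no replicate block, 776 and 1065 with filterByExpr, 686 and 870 with all 12 libraries, 976 and 1100 with the older estimator and 246 and 350 with that estimator and no block. Without 1 replicate number they ranged from 0 to 369 and from 0 to 600. The interaction passed for 49 genes with no replicate block. The length shift was −0.21 at a limit of 200 kb, against −0.06 at 100 kb. Over 226 named genes, 3 changed sign: the microglial marker Ctss (−1.30, and −2.14 to 0.05 without 1 replicate number, 0.05 without replicate 1), and the vascular markers Flt1 (−0.80, and −1.14 to 0.19, 0.19 without replicate 1) and Rgs5 (0.19, and −0.03 to 0.48, −0.03 without replicate 2). With no replicate block 94 of the 97 named genes that had a call lost it. The other 132 of the 226 did not change, most of them because they had no call to lose. The cause of these shifts was not tested. Libraries of 1730164 to 4583777 counts limit genes of a few CPM, for which 3 counts equal up to 1.73 CPM.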

Other observations

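The genes below were chosen after their values were seen. Of the 8 genes of the imprinted Ube3a region 1 was called, Ndn. Among the expressed members 5 had a positive log2 fold change and 2 a negative one (median 0.39). Mkrn3 (0.66), Magel2 (0.42) and Ube3a (0.39) did not pass. Neither did Snrpn and Snurf (each −0.29), which had nearly the same counts. Another 6 genes known to be expressed from 1 parental allele were higher in Top1 cKO-Veh cells. The non-coding RNA Meg3 had 260, 416 and 830 CPM in WT-Veh cultures 1, 2 and 3 and 477, 996 and 2035 CPM in Top1 cKO-Veh cultures (log2 1.15, SE 0.101, edgeR adjusted p = 1.07e-04, and 0.438 with no block), so that the groups overlapped while each pair rose. Its neighbour Dlk1 had 11.7, 12.5 and 5.10 against 28.6, 29.9 and 12.3 CPM (log2 1.27). Nap1l5 rose from 267, 547 and 518 to 557, 1047 and 1130 CPM, and its groups did not overlap. Peg3 (log2 0.87), Nnat (0.93) and Peg13 (0.59) were also higher, without overlap. Miat, a long non-coding RNA of neurons, had 35.4, 39.3 and 114 against 74.2, 112 and 337 CPM (log2 1.40). Dlk1 and Peg13 missed the threshold without any 1 of the 3 replicate numbers and Peg3 without replicate 1 or 2. These genes were picked because they rose, and no wider list of imprinted genes was counted.

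Genes of glia and inflammation varied between cultures within a group. Apoe, the lipid carrier of astrocytes, was lower in each pair, at 2297, 856 and 946 against 1348, 602 and 418 CPM (log2 −0.81), whereas the summed level of the 11 astrocyte markers was higher in each pair (4867, 3497 and 2376 against 6233, 3821 and 2681 CPM). The macrophage genes Cd68 (34.3, 22.0 and 7.93 against 10.4, 9.81 and 0.492 CPM) and Cd74 (13.7, 3.88 and 7.36 against 2.71, 0 and 0.492 CPM) were lower too. Cd68 and Cd74 missed the threshold without any 1 of the 3 replicate numbers, and Apoe without replicate 1 or 3. C3 and Mmp3 were highest in WT-Veh culture 1, at 28.8 and 93.7 CPM, and C3 was at 2.59 and 1.70 CPM in the other WT-Veh cultures.

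Some neuronal genes outside the lists rose. The calcium buffer Calb1 had 87.7, 104 and 141 against 258, 310 and 198 CPM (log2 1.23, SE 0.182, edgeR adjusted p = 0.00214), and the chloride extruder Slc12a5 had 253, 249 and 202 against 376, 418 and 412 CPM (log2 0.77). The serotonin receptor Htr1a had 15.1, 12.5 and 17.6 against 23.2, 44.2 and 57.1 CPM (log2 1.37). Calb1 missed the threshold without replicate 1 or 2, and Slc12a5 and Htr1a without replicate 2 or 3. Some calls rested on 1 culture. Mug1 was at 0 CPM in 5 cultures and at 13.9 CPM in Top1 cKO-Veh culture 1, and Myo5c reached 31.0 CPM in Top1 cKO-Veh culture 3 and at most 0.892 CPM in any other.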
